A study of Mus musculus with 4 samples.

Results

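The cholesterol and lipid handling genes described here are 8 mouse genes chosen by name. They are the transporters Abca1, Abca2, Abca7 and Abcg1, the liver X receptors Nr1h2 and Nr1h3, the sterol-responsive regulator Srebf2 and the lipase Lpl. They are 8 of 33069 autosomal protein-coding and lncRNA genes that could be placed, and they were proposed with earlier results of these data known, so every difference between the groups below is a description. For each gene the annotated span on mm10 (RefSeq GRCm38.p6) was taken with 5 kb on either side. DNA methylation had been measured by whole-genome bisulfite sequencing of hippocampal microglia from Tmem119-tdTomato+/- mice at postpartum week 3. There were 2 FGR libraries and 2 control (Ctrl) libraries, all of this genotype, in which microglia carry a red fluorescent reporter. FGR is taken to stand for fetal growth restriction; how it was produced, how the cells were isolated and whether a library is 1 animal or a pool is not stated in the labels. P-values therefore measure only the spread between these libraries, which may be technical.

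Cells clear surplus cholesterol by handing it to lipoproteins through ABC transporters. Oxysterols made from that cholesterol activate the liver X receptors, which switch the transporter genes on, while SREBP2, the product of Srebf2, is activated when sterols are scarce and drives synthesis and uptake. In brain, microglia take up lipid from myelin debris and dying cells, and ABCA1 and ABCG1 load cholesterol onto apolipoprotein E particles. CpG methylation is typically low at active promoters and enhancers and high elsewhere in a gene.

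Each library lists a CpG strand only where at least 5 reads cover it, and the lists overlap little. The libraries hold between 7615146 and 13578464 listed cytosines, with the fewest in FGR 1 and the most in FGR 2, at a mean listed coverage of 6.51 to 6.76 reads. In the spans of the 8 genes, 4719 CpGs are listed in at least 1 library, 2200 of them (46.6%) in both groups and 210 (4.45%) in all 4 libraries. Across the autosomes the level was 75.1% ± 0.676 in FGR and 76.2% ± 0.268 in Ctrl libraries (SD, n = 2 each). Gene bodies of 8 microglial marker genes had a median level of 37.4%, against 70.9% for 4 neuronal, 75.7% for 4 astrocytic, 79.5% for 3 oligodendrocytic and 81.2% for 2 endothelial markers. The oligodendrocyte-lineage gene, Olig2, was as low as 7.78%, so the microglial genes were the lowest list by their median but not in every gene. Cell content was not tested otherwise.

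The promoter sequences show which of their CpGs the data cover. The sequences are 300 bases from RefSeq GRCm38.p6, 250 before and 50 after the annotated start, 5′ to 3′, and the capitals mark the CpGs listed in at least 1 library. Abca2 (chr2:25428349-25428648, plus strand), Abca7 (chr10:79996244-79996543, plus strand), Nr1h2 (chr7:44553916-44554215, minus strand) and Srebf2 (chr15:82147019-82147318, plus strand) are shown because their listed CpGs carry the start-site results.
Abca2: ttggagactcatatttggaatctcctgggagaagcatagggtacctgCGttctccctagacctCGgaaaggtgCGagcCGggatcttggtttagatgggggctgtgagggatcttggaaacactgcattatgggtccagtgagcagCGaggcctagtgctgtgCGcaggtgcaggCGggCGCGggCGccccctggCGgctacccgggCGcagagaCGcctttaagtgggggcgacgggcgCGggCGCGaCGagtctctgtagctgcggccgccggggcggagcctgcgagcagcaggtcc
Abca7: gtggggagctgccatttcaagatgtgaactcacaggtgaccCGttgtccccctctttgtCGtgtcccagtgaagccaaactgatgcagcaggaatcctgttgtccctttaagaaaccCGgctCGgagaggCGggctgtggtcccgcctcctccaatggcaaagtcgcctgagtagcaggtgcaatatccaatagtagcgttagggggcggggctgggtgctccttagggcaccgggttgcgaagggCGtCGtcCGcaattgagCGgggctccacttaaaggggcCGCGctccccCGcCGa
Nr1h2: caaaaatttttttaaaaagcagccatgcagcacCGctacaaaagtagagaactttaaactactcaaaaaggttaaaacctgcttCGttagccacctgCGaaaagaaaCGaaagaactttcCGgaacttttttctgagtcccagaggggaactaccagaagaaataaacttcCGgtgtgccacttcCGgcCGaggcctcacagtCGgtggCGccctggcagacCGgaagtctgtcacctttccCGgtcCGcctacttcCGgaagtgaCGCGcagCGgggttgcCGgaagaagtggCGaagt
Srebf2: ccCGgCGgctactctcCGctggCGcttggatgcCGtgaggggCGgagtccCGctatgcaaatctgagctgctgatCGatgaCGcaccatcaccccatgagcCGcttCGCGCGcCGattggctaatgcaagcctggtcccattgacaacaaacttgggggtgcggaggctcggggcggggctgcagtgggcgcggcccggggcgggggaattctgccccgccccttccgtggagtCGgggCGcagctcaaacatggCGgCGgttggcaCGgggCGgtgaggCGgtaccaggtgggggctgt
Of the CpGs in these letters, 17 of 26 were listed for Abca2, 13 of 19 for Abca7, 19 of 19 for Nr1h2 and 21 of 30 for Srebf2. In the Abca2 letters FGR 2 lists 16 CpGs, FGR 1 lists 4, Ctrl 1 lists 2 and Ctrl 2 lists 0, so the groups are almost never read at the same letters. In Srebf2 it is the other way round: Ctrl 1 lists 21 CpGs there and FGR 1 lists 8, while FGR 2 and Ctrl 2 list 0. Of the listed CpGs in these 4 promoters, only 1, in Abca7, is listed in all 4 libraries.

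The Abca1 promoter (chr4:53159846-53160145, minus strand) is shown for the opposite reason: it holds 26 CpGs and none of them is listed in any library. Capitals here mark 2 short motifs.
Abca1: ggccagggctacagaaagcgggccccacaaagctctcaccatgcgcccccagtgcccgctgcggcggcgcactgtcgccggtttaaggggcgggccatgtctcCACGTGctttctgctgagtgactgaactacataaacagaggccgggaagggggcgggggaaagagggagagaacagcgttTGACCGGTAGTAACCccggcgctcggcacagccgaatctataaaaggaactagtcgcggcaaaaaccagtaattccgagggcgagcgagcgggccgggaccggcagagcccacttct
The first capitals are the E-box letters CACGTG, at positions -147 to -142, which 7.14% of 31396 autosomal promoters of the same length hold. The second are the known liver X receptor element of the Abca1 promoter, which lies on the other strand at positions -67 to -53 and is held by 2 of those promoters. The Srebf2 promoter above has the letters ATCACCCCA, a core of the sterol regulatory element through which SREBP2 acts, at positions -163 to -155, and 0.290% of promoters hold these letters. Both strands were searched, and none of these 3 motif matches overlaps another. The Srebf2 letters hold no CpG and those of the Abca1 motifs are unlisted, so no methylation was measured within these motifs. Lpl and Abcg1 have no promoter in the table used.

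Gene starts were unmethylated or nearly so wherever a library has 10 reads within 300 bp of the start, except Abca2 in Ctrl 1. Lpl and Abcg1 have no strand in the annotation used here, so their low-coordinate end was taken as the start. With 8 genes and 4 libraries there are 32 combinations: 8 list no CpG in this core, 23 have at least 10 reads there, and 22 of those 23 had a level from 0% to 5.63%, 11 of them exactly 0%. A count of 0 allows a level of up to 1.45% at the deepest of those 11 cores and 30% at the shallowest, which has 10 reads.

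Among the transporters, the Abca1 core was at 0% of 10 reads in FGR 1 and 0% of 30 reads in Ctrl 1, and it is unlisted in FGR 2 and Ctrl 2. The Abca7 core, at the start of a transporter linked to Alzheimer's disease risk in humans, was at 0% and 1.61% in FGR 1 and FGR 2 and at 0% in both Ctrl libraries. The Abcg1 core was at 0% of 105 reads in FGR 1 and 3.85% of 26 reads in Ctrl 1. None of these 3 cores separates the groups.

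The starts of the receptors, Srebf2 and Lpl were as low. The Nr1h2 core, at the start of the broadly expressed receptor LXRβ, was at 0% and 0.893% in FGR 1 and FGR 2, against 2.13% and 0% in Ctrl 1 and Ctrl 2. The Nr1h3 core, for LXRα, was at 5.63% in FGR 2, against 4.26% and 4.55% in Ctrl 1 and Ctrl 2, and is unlisted in FGR 1. The Srebf2 core was at 0% of 55 reads in FGR 1, against 0.559% and 0% in Ctrl 1 and Ctrl 2. The Lpl core, at the gene for the lipase that splits triglycerides of lipoproteins, was at 2.22% of 45 reads in FGR 2 and 0% of 26 and of 5 reads in Ctrl 1 and Ctrl 2.

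The exception was Abca2, a transporter of endosomes and lysosomes that is abundant in oligodendrocytes. Its core was at 3.73% of 134 reads in FGR 1 and 2.46% of 122 reads in FGR 2, against 41.2% of 17 reads in Ctrl 1, while Ctrl 2 lists no CpG there. The Ctrl 1 value comes from 3 CpGs. At position -264, 7 of 7 reads were methylated in Ctrl 1 and 4 of 5 in FGR 1. At positions -203 and -187, 0 of 5 and 0 of 5 reads were methylated in Ctrl 1, against 1 of 6 and 0 of 6 in FGR 1. Of these 3 CpGs, FGR 2 lists only that at -187, with 1 of 6 reads methylated. The step from methylated to unmethylated DNA thus lay between the same CpGs in FGR 1 and Ctrl 1, the only library of each group that lists all 3. From 300 bp to 1 kb after the start, Ctrl 1 was at 15% of 20 reads and FGR 2 at 20% of 5 reads, and the other libraries list no CpG.

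The 1 kb tile around the Abca2 start (chr2:25428001-25429000) had the smallest p-value of 550538 tiles compared between the groups, and the groups list different CpGs in it. Its level was 3.73% in FGR 1 (95% Wilson interval 1.60 to 8.44) and 2.46% in FGR 2 (0.840 to 6.98), against 72.2% in Ctrl 1 (61.0 to 81.2) and 80.0% in Ctrl 2 (64.1 to 90). The means were 3.10% ± 0.90 in FGR and 76.1% ± 5.5 in Ctrl libraries (SD, n = 2 each), a difference of -73.0 points with no overlap (adjusted p = 0.00993, quasi-binomial model with limma, its prior from tiles between 10% and 90%). It is 1 of 2 tiles called among all tiles, or 0.000363%, and 1 of 144 tested in the 8 spans. A region was called where its adjusted p was below 0.05 and the groups were 10 points or more apart. With the spread moderated over all tiles, the form first planned, the adjusted p was 0.0325. Leaving out FGR 1, FGR 2, Ctrl 1 or Ctrl 2 ended the call, at adjusted p = 0.207, 0.216, 0.419 and 0.163 in the same model, as did limma on log2 ratios (adjusted p = 0.972); over the 10 other settings the adjusted p ran from 2.87e-10 to 0.972. The tile was known for this difference when the gene was chosen, and no support is drawn from the test.

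No CpG of that tile is listed in all 4 libraries. The FGR libraries alone list 39 CpGs, from position -177 to 166, at 0.858% of 233 reads: 0% of 117 reads in FGR 1, where a count of 0 allows up to 2.56%, and 1.72% of 116 reads in FGR 2. The Ctrl libraries alone list 8 CpGs, from position -556 to -399, at 81.1% of 90 reads: 81.8% in Ctrl 1 and 80.0% in Ctrl 2. Only 3 CpGs are listed in both groups, at 26.1% of 23 reads in FGR and 41.2% of 17 reads in Ctrl. Compared CpG by CpG and weighted by reads, FGR exceeded Ctrl there by 1.80 points. The FGR libraries were read in the unmethylated start and the Ctrl libraries upstream of it, and the groups share almost no letters of the sequence printed above. Of the 39 CpGs, 21 of the 23 in FGR 1 and 22 of the 23 in FGR 2 have exactly 5 reads, the lowest number listed. CpGs this close can be read by the same molecules, so the intervals, which treat reads as independent and cover counting error only, are too narrow.

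**Figure D1:**
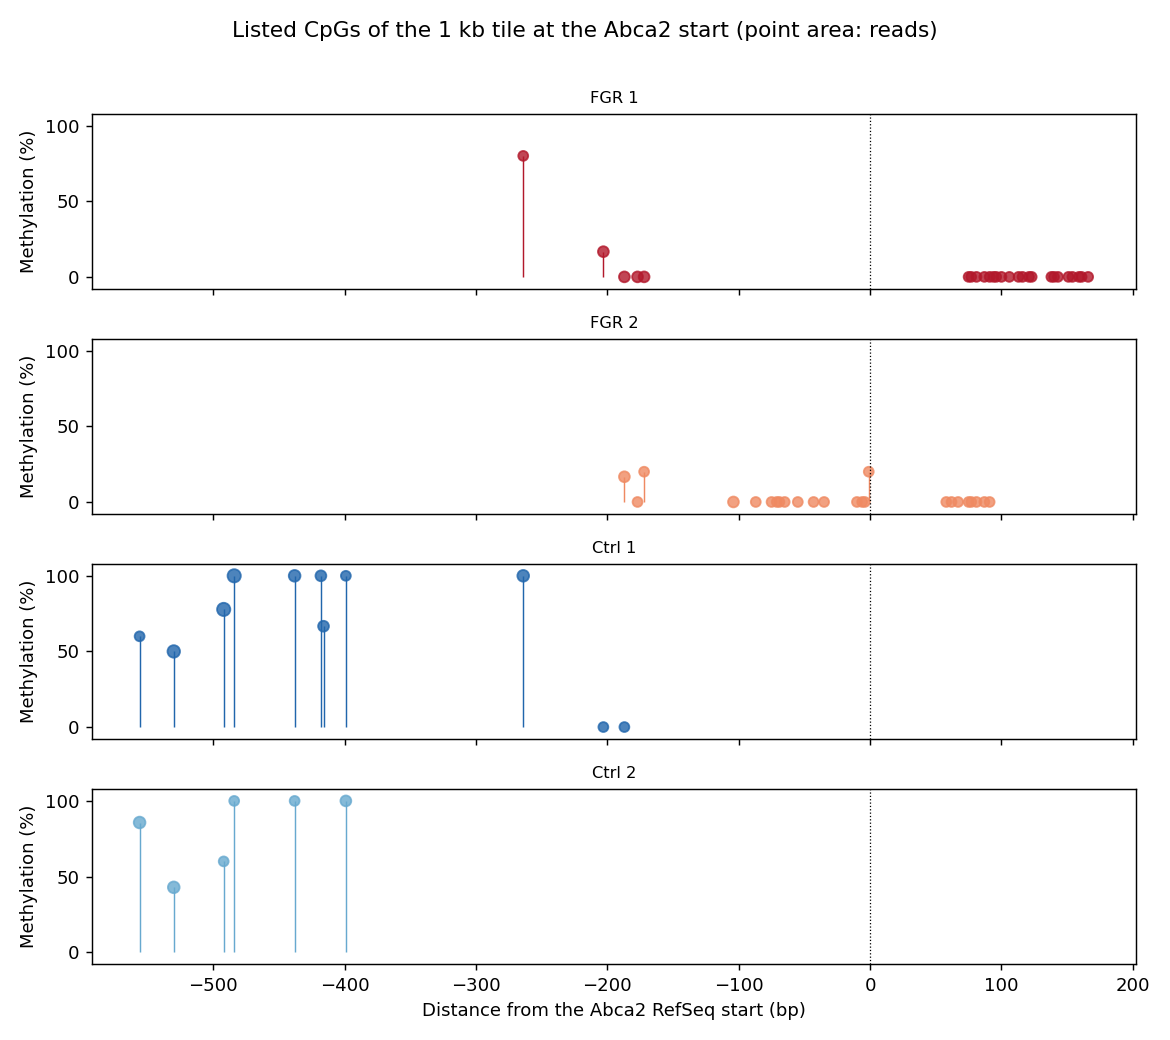
Methylation (%) of every listed CpG in the 1 kb tile at the Abca2 start, by distance from the RefSeq start (bp), with 1 panel a library (FGR 1, FGR 2, Ctrl 1, Ctrl 2) and point area proportional to reads. The FGR points lie from -264 to 166 and the Ctrl points from -556 to -187, and the 3 CpGs read in both groups step from high to low between -264 and -203 in FGR 1 and in Ctrl 1.

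Start windows of all 8 genes varied with where they were read. In a 2 kb window from 1500 bp before to 500 bp after the start, levels ranged from 0% to 91.4% over the 31 combinations with at least 10 reads. The level followed the share of the window's reads that fell within 300 bp of the start, with r = -0.87 and rho = -0.91 across these 31 points, which share libraries and genes and so get no p. The core reads are part of the window's reads and were mostly unmethylated, so this relation is partly arithmetic. The Srebf2 window was at 6.56% in FGR 1 and 72.5% in FGR 2, against 3.49% and 13.0% in Ctrl 1 and Ctrl 2. Of its reads, 90.2% lay in the core in FGR 1, 0% in FGR 2, 69.4% in Ctrl 1 and 29.3% in Ctrl 2. The Nr1h2 window was at 13.3% and 14.6% in FGR 1 and FGR 2, against 2.13% in Ctrl 1 and 68.8% in Ctrl 2, with 100% of reads in the core in Ctrl 1 and 18.8% in Ctrl 2. The Abcg1 window was at 7.87% in FGR 1 and 91.4% in FGR 2, against 19.5% and 33.3% in Ctrl 1 and Ctrl 2. In each of these 3 genes, libraries of the same group stood further apart than the group means.

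**Figure D2:**
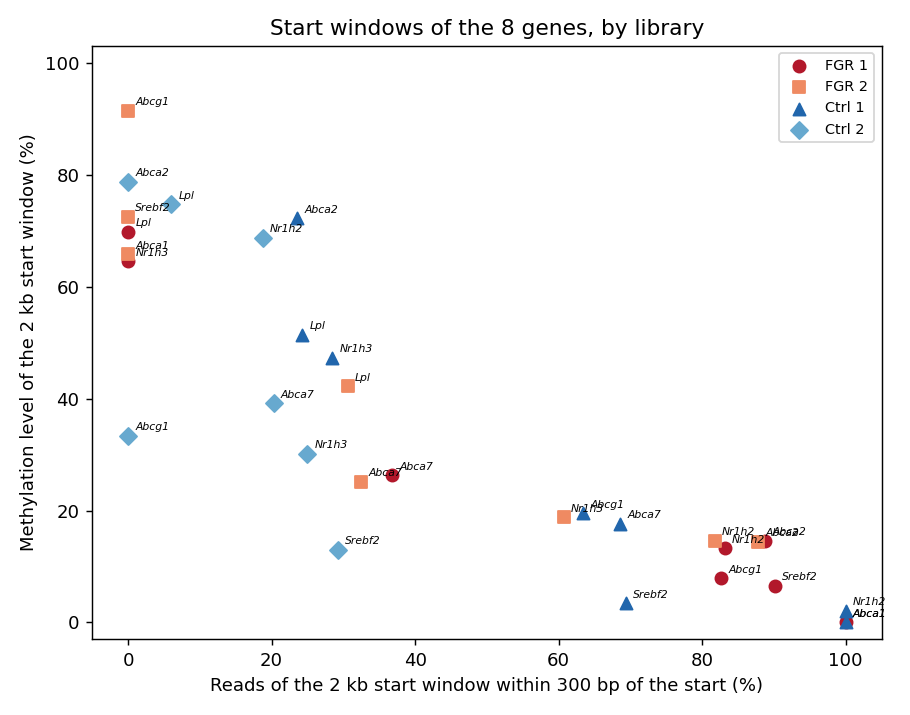
Level of the 2 kb start window (%, vertical) against the share of its reads within 300 bp of the start (%, horizontal), 1 point a gene and library with at least 10 reads, FGR in red and orange and Ctrl in blue. Windows read mostly in the core are near 0% and windows read outside it reach 91.4%, in libraries of both groups.

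Beyond the start, the members differed in how far the low DNA reached into the gene. Abca1 was still at 0% in all 4 libraries from 300 bp to 1 kb after its start, and from 2 to 5 kb after it the level was 21.4% and 26.6% in FGR 1 and FGR 2, against 27.2% and 29.0% in Ctrl 1 and Ctrl 2. Abcg1 was at 13.2% and 12.7% from 1 to 2 kb after its low end in FGR 1 and FGR 2, against 5.93% and 10% in Ctrl 1 and Ctrl 2. Lpl was at 6.76% and 3.30% there in the FGR libraries, against 9.43% and 13.6% in the Ctrl libraries. In contrast Abca2 was at 93.8% and 100% from 1 to 2 kb in FGR 1 and FGR 2, against 90.9% and 90% in Ctrl 1 and Ctrl 2, and Nr1h2 was at 96.2% and 92.4%, against 95.0% and 90.2%. From 1 to 2 kb Abca1 was at 40% of 5 reads and 13.6% in FGR 1 and FGR 2, against 27.5% and 13.5% in Ctrl 1 and Ctrl 2. In every library, then, Abca1, Abcg1 and Lpl were at 40% or less from 1 to 2 kb, where Abca2 and Nr1h2 were at 90% or more.

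Low DNA was also found beyond the start inside some of the genes. A low stretch was defined as adjoining 500 bp windows, each with at least 3 CpGs and 20 reads over all libraries, at a pooled level of at most 20%. Pooling the libraries favours stretches that are low in both groups, so no conclusion on sharing is drawn. Some stretches are unlisted in a whole group, as is that from -1944 to -1445 bp in Nr1h3 in the Ctrl libraries. The 4 stretches described below have reads in every library. The counts cover the extended spans, with starts, flanks and neighbours. Abcg1 had 10 such stretches, Nr1h3 6, Abca1 5, Abca7 and Lpl 4 each, Nr1h2 2, and Abca2 and Srebf2 1 each. Those of Abca2 and Srebf2 lie at the start. Those of Nr1h2 and Abca7 lie at the start or overlap a neighbouring gene. Of the windows measured, from 2.46% (Srebf2) to 26.8% (Nr1h3) were low. In Abca1, the stretch 4107 to 5106 bp after the start was at 15.2% and 3.30% in FGR 1 and FGR 2, against 6.76% and 7.02% in Ctrl 1 and Ctrl 2. The stretch 25607 to 26106 bp after it was at 5.56% and 9.09% in the FGR libraries, against 3.03% and 4.35% in the Ctrl libraries. In Abcg1, the stretch 16500 to 17499 bp after the low end was at 0% and 12.5% in FGR 1 and FGR 2, against 13.9% and 0% in Ctrl 1 and Ctrl 2. In Lpl, the stretch 8500 to 8999 bp after the low end was at 0% and 8.33% in the FGR libraries and at 0% in both Ctrl libraries, on 5 to 21 reads each. All 4 stretches lie inside the annotated genes; whether they are exonic or intronic was not analysed here.

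Several low stretches overlap neighbours of the members. The stretch 4850 to 6349 bp after the Nr1h2 start overlaps Pold1, a DNA polymerase subunit gene that ends 801 bp away. In the Nr1h3 span, low stretches overlap Madd and Acp2, which lie 55 bp from the gene and across its outer end. The stretch from 10556 to 12055 bp after the Nr1h3 start overlaps both Madd and Nr1h3. That from -8444 to -6945 bp overlaps both Acp2 and Nr1h3, at the annotated outer end of Nr1h3 and upstream of the start used here. In the Abca7 span, low stretches overlap Cnn2 and Arhgap45. The Abca2 span also takes in part of Fut7, and the Srebf2 span part of Shisa8. The level of an extended span therefore mixes a gene with its neighbours in Nr1h2, Nr1h3, Abca7, Abca2 and Srebf2.

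**Figure D3:**
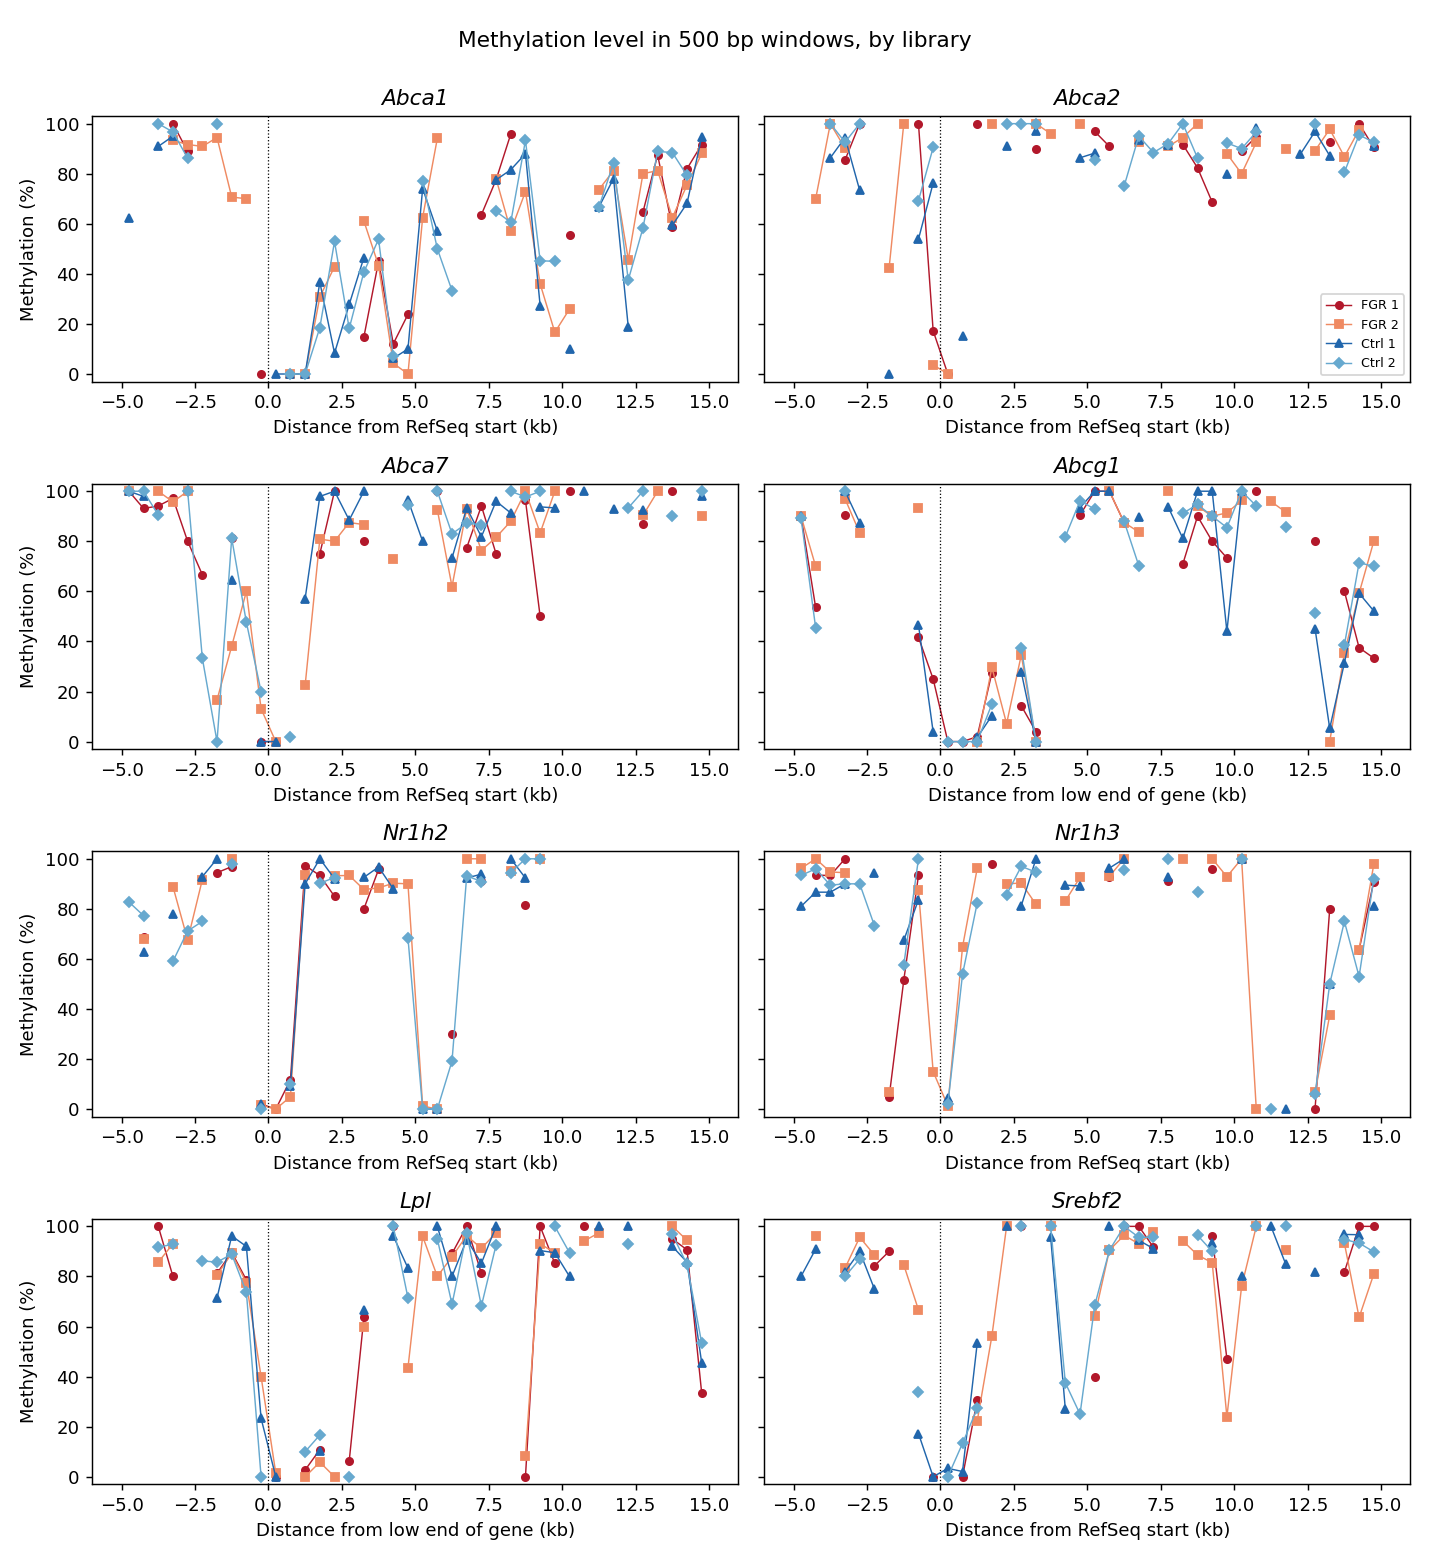
Methylation level (%) in 500 bp windows with at least 10 reads, from 5 kb before to 15 kb after the start (low end for Abcg1 and Lpl), 1 panel a gene, FGR libraries in red and orange and Ctrl libraries in blue; lines join adjoining windows only. Each gene but Abca2 is near 0% at its start in libraries of both groups. Abca2 is near 0% there in FGR, while within 300 bp of it Ctrl 1 lists only 3 CpGs and Ctrl 2 lists no CpG. Abca1, Abcg1 and Lpl are at 40% or less from 1 to 2 kb, where Abca2 and Nr1h2 are at 90% or more.

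Over whole spans, FGR libraries were lower in 6 of the 8 genes, where 63.1% of 32609 tested spans were lower, with a median difference of -2.77 points, against -1.11 over all spans. None of the 8 was called, nor was any other span (0% called, and 2052 at an unadjusted p under 0.05), and no member had an adjusted p below 0.767 in the quasi-binomial model. In 3 of the 8, Abca2, Nr1h2 and Lpl, the groups did not overlap, where 36.1% of all spans did not. With 2 libraries a group, an exact permutation test cannot go below p = 0.333 for any of these values.

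Of the transporter spans only Abca2 separated the groups. Abca1 was at 77.0% and 78.7% in FGR 1 and FGR 2, against 78.0% and 78.4% in Ctrl 1 and Ctrl 2, the smallest spread of any member. Abca2 was at 77.1% and 80.2%, against 86.1% and 89.1%, so both FGR libraries were lower. Abca7 was at 72.2% and 67.4% in the FGR libraries, against 77.7% and 71.0% in the Ctrl libraries. Abcg1 was at 68.8% and 77.4%, against 71.3% and 76.9%, and the Abca7 and Abcg1 groups overlapped.

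Nr1h2 varied most among the receptor, Srebf2 and Lpl spans. Nr1h2, the shortest member at 4353 bp, was at 48.5% and 56.5% in FGR 1 and FGR 2, against 68.2% and 60.9% in Ctrl 1 and Ctrl 2. Nr1h3 was at 72.2% and 63.2%, against 65.1% and 70.1%. Srebf2 was at 81.0% and 84.7% in the FGR libraries, against 73.3% and 83.0% in the Ctrl libraries. Lpl was at 75% and 71.3%, against 79.3% and 83.2%. Nr1h2 and Lpl were lower in both FGR libraries, and Nr1h3 and Srebf2 overlapped.

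Gene bodies, with 500 bp trimmed from each end, left only Lpl without overlap. Its body was at 72.4% and 71.3% in FGR 1 and FGR 2, against 81.9% and 81.9% in Ctrl 1 and Ctrl 2, with means of 71.8% ± 0.844 and 81.9% ± 0.0215 (SD, n = 2 each), a difference of -10.1 points (adjusted p = 0.784, quasi-binomial model with limma). Abca2, whose span differed by -8.93 points, differed by -0.38 points in the body, at 88.5% and 90.4% in FGR and 89.4% and 90.2% in Ctrl libraries. Of 28035 bodies tested none was called (0%), 1680 had an unadjusted p under 0.05, and 35.3% did not overlap.

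**Figure D4:**
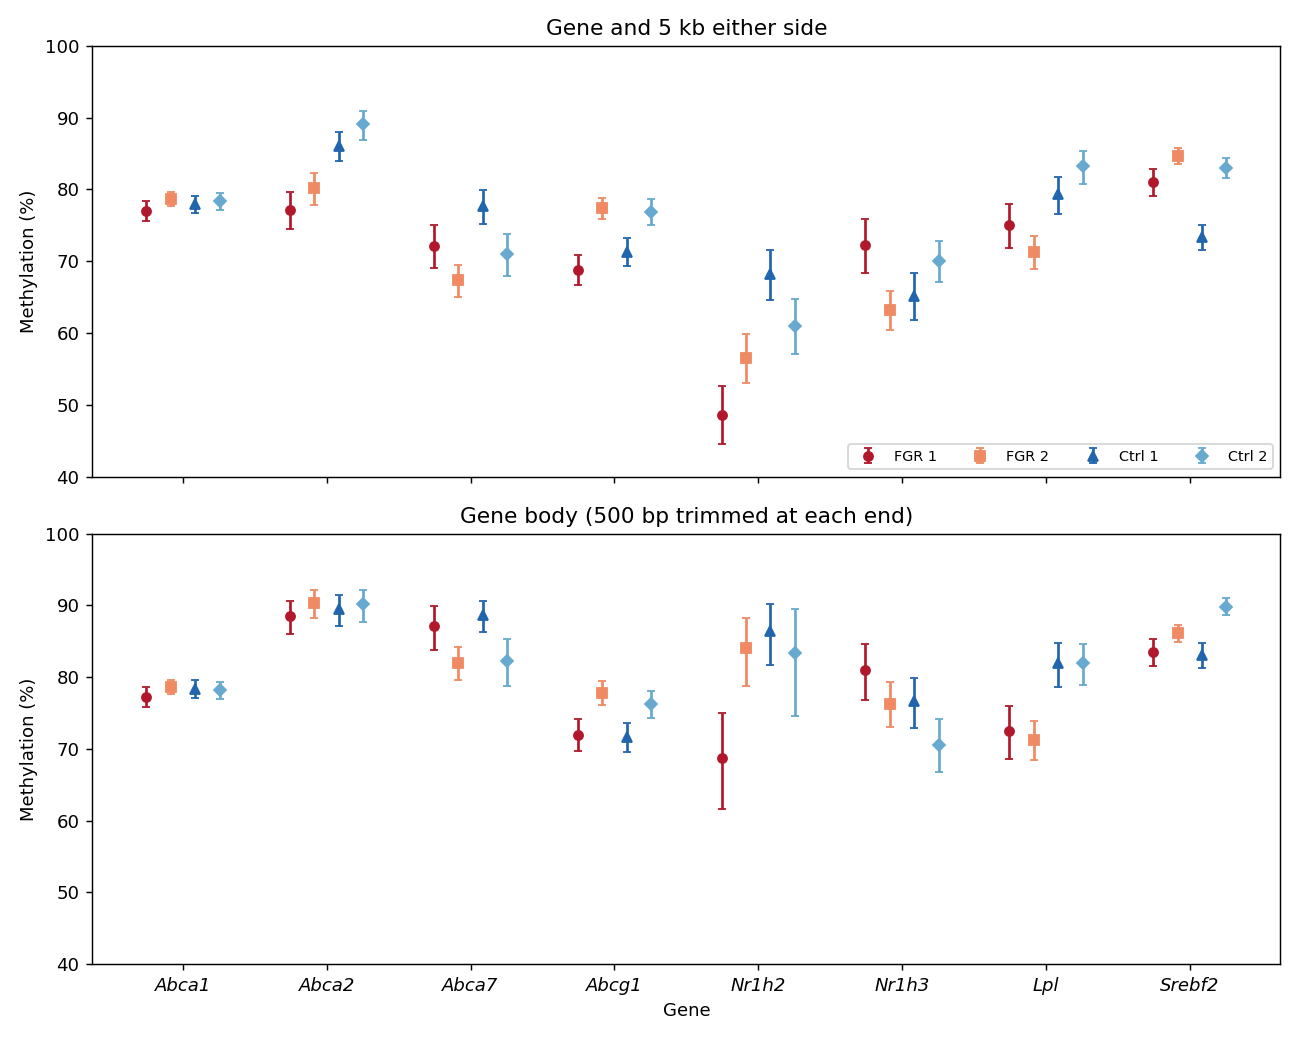
Methylation level (%, axis from 40 to 100) of each gene with its 5 kb flanks (upper panel) and of its trimmed body (lower panel), by library, FGR left of Ctrl; bars are 95% Wilson intervals. Abca2, Nr1h2 and Lpl separate in the upper panel and only Lpl in the lower.

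At the CpGs listed in both groups the largest span differences were smaller. Each such CpG was compared with itself, reads pooled within a group, and the differences were averaged with weights from the reads. Over spans, Abca2 differed by -0.90 points at 130 CpGs, against -8.93 over all listed CpGs. Nr1h2 differed by 0.0914 points at 99 CpGs, against -12.1, and Lpl by 0.67 points at 134 CpGs, against -8.11. Srebf2 differed by 1.16 points at 424 CpGs, against 4.66. The 3 spans whose groups did not overlap were thus within 1 point CpG by CpG, although the pooled levels of Lpl at those CpGs were 78.2% in FGR and 82.3% in Ctrl.

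The remaining spans changed less. Abca1 differed by -0.22 points at 750 CpGs. Abcg1 differed by -2.09 points at 357 CpGs and Nr1h3 by 1.59 points at 144, both further apart than over all listed CpGs (-0.99 and 0.10 points). Abca7 kept the largest difference, -3.95 points at 162 CpGs. Abca7 was lower in FGR in all 4 pairings of an FGR with a Ctrl library at their shared CpGs, by -3.08 to -4.61 points, but Ctrl 1 and Ctrl 2 differed from each other by -3.74 points at theirs. Abcg1 was also lower in all 4 pairings, by -0.60 to -4.74 points, and Nr1h3 was higher in all 4, by 0.96 to 4.63 points. The other members had pairings of both signs. Over all autosomal CpGs the 4 pairings were lower as well, by -0.18 to -0.39 points. The members split evenly, 4 lower and 4 higher in FGR, with a median of -0.0633 points, and over 32606 genes with such CpGs 54.6% were lower, with a median of -0.17 points. The median size of the span difference over all these genes was 2.66 points at all listed CpGs and 1.05 points at the shared ones. Over the members' spans it was 4.61 and 1.03 points, and over the bodies of all genes 2.61 and 1.26 points. In the members' bodies it was not smaller at the shared CpGs: 1.30 points at all listed CpGs and 1.51 at the shared ones, with Nr1h2 at -5.43 and Abca7 at -3.84 points.

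For Lpl the choice of comparison mattered. At its 95 body CpGs listed in both groups, FGR 1 and FGR 2 were at 78.0% and 73.6%, against 80.7% and 80.7% in Ctrl 1 and Ctrl 2, and the libraries of a group still list different CpGs among them. Compared CpG by CpG the difference was 1.05 points. The 22 body CpGs that every library lists were at 80.5% and 79.6% in FGR 1 and FGR 2, against 84.5% and 81.0% in Ctrl 1 and Ctrl 2. The Lpl difference there was -2.64 points, and both FGR libraries were below both Ctrl libraries. Nr1h3 behaved likewise with the other sign: its 93 shared body CpGs were at 83.3% and 79.1% in FGR 1 and FGR 2, against 74.9% and 67.6% in Ctrl 1 and Ctrl 2, and differed by 1.98 points CpG by CpG.

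Srebf2 differed in sign between the sets of CpGs. At the 22 span CpGs listed in all 4 libraries it was at 81.3% and 81.4% in FGR 1 and FGR 2, against 87.7% and 87.8% in Ctrl 1 and Ctrl 2, a difference of -6.39 points, where all listed CpGs gave 4.66 (unadjusted p = 0.0458, adjusted p = 0.881, quasi-binomial model with limma over 29996 spans, none called, 0%). Those 22 are 2.27% of the 969 CpGs listed for the gene. Abcg1 went the other way, with 85.9% and 89.9% in FGR 1 and FGR 2 at 24 such CpGs, against 84.2% and 83.2% in Ctrl 1 and Ctrl 2. Abca7 kept its direction at 12 such CpGs. It was at 84.1% and 84.9% in FGR 1 and FGR 2, against 90.1% and 88.6% in Ctrl 1 and Ctrl 2. That is a difference of -4.84 points (adjusted p = 0.961 in the same model). At this depth, the sign of a difference of a few points varied with which CpGs were listed in Srebf2 and Abcg1, but not in Abca7.

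**Figure D5:**
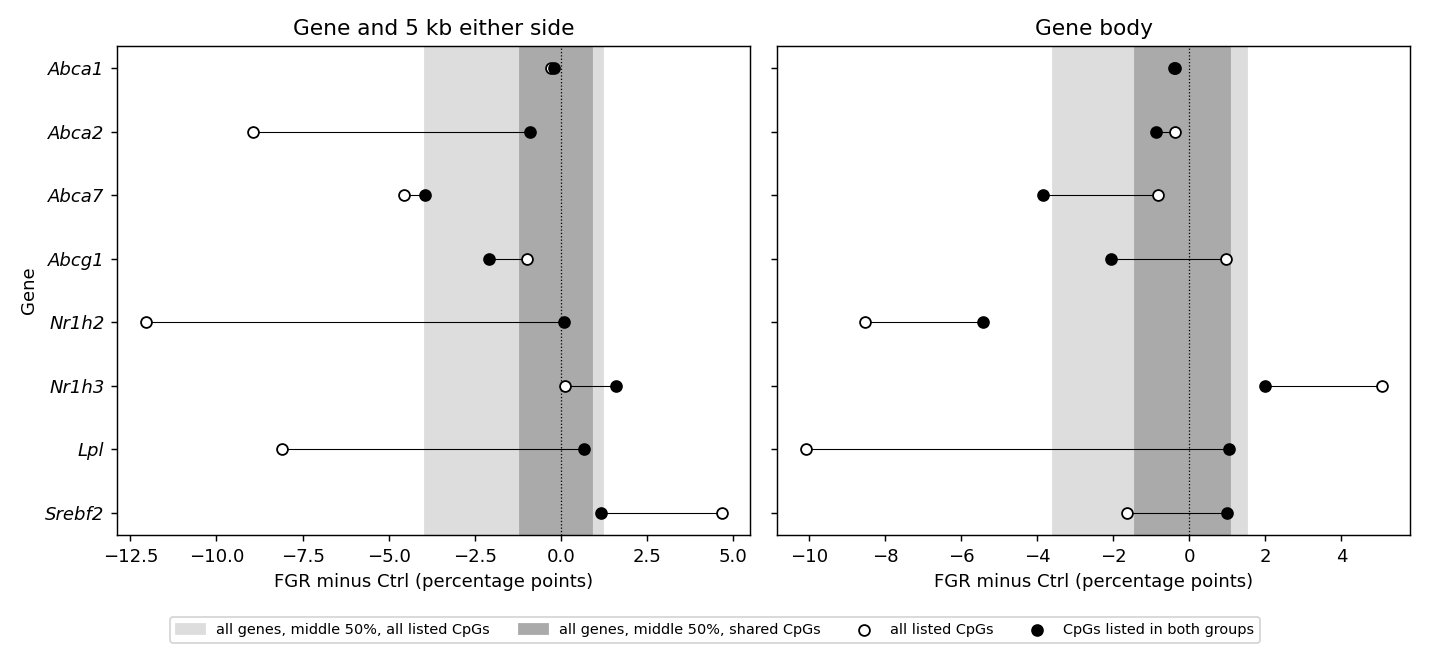
Difference FGR minus Ctrl (percentage points) of each gene over all listed CpGs (open points) and at CpGs listed in both groups (filled points), for the gene with its flanks (left) and the gene body (right); grey bands hold the middle 50% of all genes for each set. In the left panel Abca2, Nr1h2 and Lpl are at -8.93, -12.1 and -8.11 over all listed CpGs and between -0.90 and 0.67 at the shared ones.

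Along the genes, 144 tiles of 1 kb could be tested: 78 were lower and 65 higher in FGR, and in 36 (25%) the groups did not overlap, where 33.0% of all tiles did not. Besides the Abca2 start, the tile with the lowest p was in Abca1, from 32895 bp after its start (chr4:53126001-53127000), at 53.3% and 50.6% in FGR 1 and FGR 2, against 91.1% and 91.1% in Ctrl 1 and Ctrl 2. Its difference was -39.1 points (adjusted p = 0.247, quasi-binomial model with limma), and at the 7 CpGs listed in both groups FGR was at 82.5% and Ctrl at 87.3%. In that tile too the groups list different CpGs, 22 in all and 0 in all 4 libraries. The largest positive difference in Abcg1, a tile from 1307 bp after its low end, had 20.5% and 19.3% in FGR 1 and FGR 2, against 6.73% and 13.3% in Ctrl 1 and Ctrl 2, and -3.51 points at its 13 shared CpGs, the other direction. In 3 other members a tile without overlap kept its direction at shared CpGs. The Abca7 tile from 8507 bp after the start was at 88.3% and 89.6% in FGR 1 and FGR 2, against 93.8% and 98.3% in Ctrl 1 and Ctrl 2, and -5.97 points apart at 13 shared CpGs. The Nr1h3 tile from -3884 was at 95.8% and 94.6%, against 90.5% and 88.2%, and 5.49 points apart at 6 shared CpGs. The Lpl tile from 6446 bp after the low end was at 93.5% and 93.5%, against 88.7% and 86.0%, and 6.53 points apart at 7 shared CpGs. None of these 3 was called, and each had an adjusted p of 1 in the same model. Other members' extreme tiles overlapped between the groups. Of tiles read only at CpGs listed in all 4 libraries, 23 lay in the members and 0 were called, where 0.000686% of all such tiles were. No single CpG of the members had 10 reads in every library, so none was tested (0% of 19589 CpGs tested elsewhere were called).

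Srebf2 also carries the microRNA gene Mir33, whose products bind Abca1 transcripts and so tie sterol regulation to efflux. The mature strands from RefSeq GRCm38.p6 (chr15:82198127-82198147 and chr15:82198167-82198188, plus strand) are shown with the seed, bases 2 to 8, in capitals.
mmu-miR-33-5p: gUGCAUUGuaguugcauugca
mmu-miR-33-3p: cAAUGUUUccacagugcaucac
The 1000 bp around its hairpin, 50.9 kb into Srebf2, were at 38.7% and 69.6% in FGR 1 and FGR 2, against 70.6% and 80.0% in Ctrl 1 and Ctrl 2, on 10 to 109 reads. The groups did not overlap, where 33.0% of all 1 kb tiles did not, but FGR 2 and Ctrl 1 were close, at 69.6% and 70.6%. FGR 1 was the lowest library, and Ctrl 2 lists only 2 CpGs there.

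The wider pathway was described by the bodies of listed genes, and none of the genes in any list was called (0%). FGR was lower in 10 of 17 genes of cholesterol synthesis, 15 of 18 of SREBP regulation and lipid uptake, 12 of 15 of the receptors' partners and targets, 4 of 9 of lipase regulation and lipid storage and 5 of 14 other ABCA and ABCG transporters, where 60.7% of all 28035 bodies were lower. Median differences were -1.88, -2.58, -3.63, 0.0172 and 1.16 points in that order, against -0.84 over all bodies. The genes named below had the largest positive or the largest negative difference of their list.

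Apoe encodes the main apolipoprotein of the brain and is a liver X receptor target. Its body was at 64.5% and 56.8% in FGR 1 and FGR 2, against 24.0% and 28.8% in Ctrl 1 and Ctrl 2. The body differed by 34.3 points (adjusted p = 0.762, quasi-binomial model with limma). At its 32 CpGs listed in both groups the pooled levels were 37.2% in FGR and 28.5% in Ctrl, and the difference CpG by CpG was 1.94 points. Idi1, an isomerase of cholesterol synthesis, was at 52.7% and 51.8% in the FGR libraries, against 79.0% and 85.7% in the Ctrl libraries, with pooled levels of 60.7% in FGR and 83.3% in Ctrl at 25 shared CpGs and a difference CpG by CpG of -3.10 points. Abcg4, a transporter related to Abcg1, was at 68.3% and 82.8% in the FGR libraries, against 60.5% and 56.2% in the Ctrl libraries, and 0.59 points apart at 61 shared CpGs. In these 3 genes, named for their large differences, the groups did not overlap over all listed CpGs, where 35.3% of all 28035 bodies did not. CpG by CpG the groups were under 4 points apart, while the pooled levels of Apoe and Idi1 at the shared CpGs stayed further apart.

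Tm7sf2, a sterol reductase gene, differed by 18.0 points without overlap, where 35.3% of all bodies did not overlap. Its body was at 70.3% and 68.9% in FGR 1 and FGR 2, against 35.7% and 67.4% in Ctrl 1 and Ctrl 2. Only Ctrl 1 thus stood apart. CpG by CpG the difference in Tm7sf2 was 0.68 points at 15 shared CpGs. The groups overlapped in Angptl4 (19.8 points, and 3.30 CpG by CpG at 18 shared CpGs), Insig2 (-8.06 points), Pltp (-6.01 points) and Abcg3 (-1.32 points). None of these 5 had an adjusted p below 0.925 in the same model.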

How the data were processed

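Whole-genome bisulfite sequencing of 4 libraries was used. Trimming with Trim Galore 0.6.5, and use of Bismark, methylKit 1.28.0 and mm10, are recorded in the submitters' processing notes, with no Bismark version. The deposited tables hold, per the file headers, a read count for each CpG cytosine and the percent of those reads unconverted or converted; the lowest deposited count is 5. Strands were summed per CpG, and the highest 0.1% of coverages were left out. A region's level is its methylated share of reads; tested regions had 3 or more CpGs and 10 or more reads in each library. FGR was tested against Ctrl with a quasi-binomial model, Benjamini-Hochberg adjusted over all regions of a kind, its spread moderated with limma 3.58.1 in R 4.3.3. The planned test moderated the spread over all regions. On simulated data that form recovered no changed tile, so the prior was instead taken from regions between 10% and 90%, a change made after counts under the planned form had been seen; the planned form is given as an alternative. Differences at shared CpGs weight each CpG by its reads. The members, lists and tests were chosen with earlier results of these data known. Named tiles are called ones and each member's largest difference either way among tiles of at least 5 CpGs; those whose groups overlap are not given in the text. Of each pathway list the genes with the largest difference either way are named, except some that are not reported here. Alternatives left out each library, added a replicate block, used limma on log2 ratios, and changed coverage and CpG limits, flanks and CpG sets.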

Additional observations from a re-analysis of the deposited data

How the results depend on the processing

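For 1 kb tiles, where 2 were called, leaving out a library gave 0 to 1, limma on log2 ratios 0, at least 5 CpGs 1, CpGs with at least 10 reads 0, no upper limit on coverage 11, moderation over all regions 1, and a spread raised to at least 1 before moderation 338. The same floor gave 301 extended spans, 446 gene ends and 176 bodies, where 0 were called otherwise. At CpGs listed in all 4 libraries, the 1 tile called became 0 without any of the libraries in turn (0 to 0), 0 with limma, with either other moderation and with at least 10 reads, and 8 with no upper limit; spans there gave 0 to 1 without a library (1 without FGR 2) and 6 with no upper limit. The cause was not tested. With the replicate block, tiles called numbered 411, and 2 at CpGs listed in all 4 libraries. Same-numbered libraries deviated together with r = 0.0174 over 32609 spans. With 2 libraries a group and different CpGs listed in each, this value cannot show whether the numbers pair them. Moderation over all regions was the planned test and was replaced after simulated data showed no recovery in tiles and ends; the floor was added after the data were seen. The called Abca2 tile changed from -73.0 to 1.80 points at CpGs listed in both groups. Of 38 member differences, 11 of 38 took the other direction at CpGs listed in both groups and 8 of 24 at CpGs listed in all 4; leaving out a library turned 6 to 9 of 38. Depth limits all of this: a listed CpG of the members has a mean of 5.93 to 8.64 reads, by gene and library.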
